A study of Mus musculus with 16 samples.

Results

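The comparison described here is that of striatum from DREAM+/- mice, which carry 1 knockout copy of the gene for the calcium-binding protein DREAM, with striatum from wild-type mice. Its arrays were taken by genotype label alone: 4 were labelled DREAM+/- and 4 wild type, 8 of the 16 arrays of the study. The comparison and the gene lists were chosen with earlier results of these data known. The filter on dim signals was passed by 13011 genes. All animals were of the B6xCBA strain. Neither of these groups carries the R6/2 transgene, which expresses the start of the human huntingtin gene with a long CAG repeat and models Huntington's disease. The other 8 arrays, 4 from R6/2 mice and 4 from R6/2 x DREAM+/- mice, were used to measure the same allele on another background and entered the same fit, so that all 16 arrays set the estimate of spread. The labels give striatal neurons as the cell type, but RNA was taken from the whole striatum, so that these are bulk values in which fewer cells of a type cannot be told apart from less RNA per cell. The sources used here do not give the deleted part of the gene, the age or sex of the mice, or whether mice were pooled. Values are log2 levels of probe sets, groups of short probes for 1 transcript, on Affymetrix Mouse Genome 430 2.0 arrays.

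DREAM, also called calsenilin and KChIP3, is encoded by Kcnip3. In the nucleus it binds a short DNA element, the downstream regulatory element or DRE, and represses transcription, and it lets go of DNA when it binds calcium. At the membrane the same protein is an accessory subunit of Kv4 channels, which carry the transient A-type potassium current of neurons, and in the endoplasmic reticulum it has been linked to presenilins and to the stress sensor ATF6. Medium spiny neurons, the main neurons of the striatum, express many activity-dependent genes that DREAM has been reported to regulate.

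Kcnip3 itself was lower on every DREAM+/- array than on every wild-type array, on both probe sets that measure it. The brighter probe set read 9.41, 9.89, 9.51 and 9.86 on the 4 wild-type arrays and 7.82, 7.77, 7.72 and 7.78 on the 4 DREAM+/- arrays. Its DREAM+/- level was 26.9% of wild type (log2 change -1.90, 95% interval -2.09 to -1.70, limma adjusted p = 3.67e-09 over all single-symbol probe sets). The dimmer probe set read 8.22, 8.47, 8.60 and 8.83 in wild type and 5.40, 5.43, 5.85 and 5.65 in DREAM+/-. There the DREAM+/- level was 13.0% of wild type (log2 change -2.95, 95% interval -3.20 to -2.69, limma adjusted p = 3.74e-10). All 4 DREAM+/- arrays were there below 5.944, the level under which genes were left out as dim, so 13.0% is not an exact size. The groups were separated in the direction of their labels, but both levels were lower than the loss of 1 of 2 copies would give if the level followed copy number. Where either probe set lies relative to the deleted part is not known here, and the reason for the low levels was not tested.

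**Figure D1:**
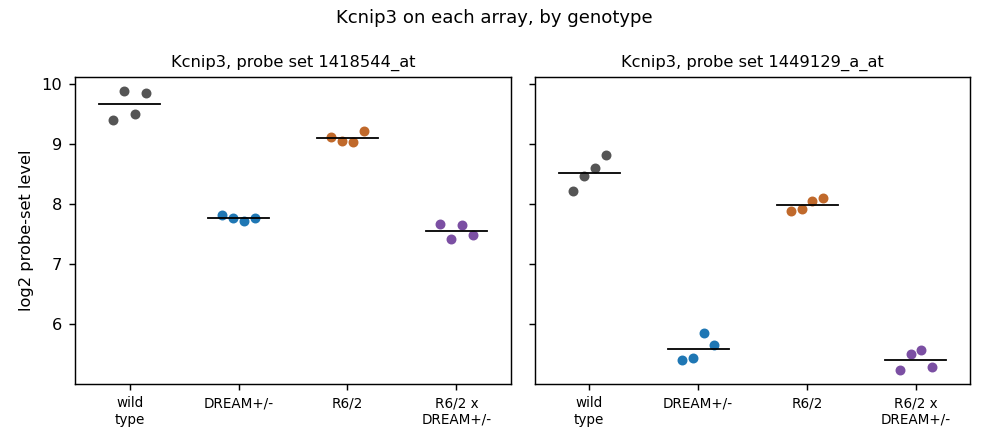
Log2 level (vertical axis) of the 2 Kcnip3 probe sets on each of 16 arrays, by genotype; points are single arrays and bars are means of 4. On both probe sets the 4 DREAM+/- arrays lie below the 4 wild-type arrays, at 7.72 to 7.82 against 9.41 to 9.89 on the left and 5.40 to 5.85 against 8.22 to 8.83 on the right.

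The 8 arrays were not equally uniform. The median gene had a standard deviation of 0.0976 (log2) among wild-type arrays and 0.0658 among DREAM+/- arrays, and correlations between arrays of a group ran from 0.9899 to 0.9957 in wild type and from 0.9968 to 0.9974 in DREAM+/-. Wild-type replicates 1 and 2 stood apart in transcripts of the Y chromosome: the mean of Eif2s3y, Kdm5d and Uty was 5.47 and 5.52 there, 6.80 and 6.43 on wild-type replicates 3 and 4, and 6.54 to 6.91 on the DREAM+/- arrays. Xist, which is transcribed from the inactive X chromosome, read 11.47 to 11.84 in wild type and 11.04 to 11.49 in DREAM+/-. Counts are therefore also given without wild-type replicates 1 and 2, a fit that leaves 2 wild-type arrays. Replicates are biological per the labels, which do not say whether each is 1 animal.

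Across the genome, 479 of 13011 genes differed between DREAM+/- and wild type at a limma adjusted p under 0.05, 3.68% of those tested. Of these, 208 rose (1.60%) and 271 fell (2.08%). The 4 and 4 arrays did not overlap for 449 of the 479, against 12.5% of all genes tested. Most changes were small: the median size was 0.36 on the log2 scale, 129 genes changed by at least 0.5 and 29 by at least 2-fold, of which 18 rose and 11 fell. Leaving out wild-type replicates 1 and 2 left 155 calls (77 higher and 78 lower), 145 of them shared with the 479. Quantile normalization gave 480 calls, 253 higher and 227 lower. Leaving out any 1 DREAM+/- array gave 280 to 315 calls, and leaving out wild-type replicate 2 gave 284.

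The decreases of Rbm45, Tmem87a and Cap1 were larger than that of the brighter Kcnip3 probe set. Rbm45, which encodes an RNA-binding protein, read 9.86, 9.53, 9.54 and 9.36 in wild type and 7.06, 7.78, 7.14 and 6.91 in DREAM+/-. The groups lay far apart, a 5.10-fold decrease (log2 change -2.35 ± 0.20 SE, limma adjusted p = 1.56e-06). Tmem87a, which encodes a membrane protein of the Golgi and lies on the Kcnip3 chromosome 7.1 Mb away, read 9.04, 8.95, 8.94 and 8.78 in wild type and 6.68, 6.76, 6.73 and 6.52 in DREAM+/-. The 4 DREAM+/- values were close to each other and far below wild type (log2 change -2.25 ± 0.11 SE, limma adjusted p = 9.18e-10). Cap1, an actin-cycling protein, read 11.03, 10.99, 11.50 and 11.27 in wild type and 7.98, 9.13, 9.16 and 10.28 in DREAM+/-. Its DREAM+/- arrays were widely spread, and the change (-2.06 ± 0.46 SE, limma adjusted p = 0.0172) did not pass without DREAM+/- replicate 1 (adjusted p = 0.068) or without wild-type replicates 1 and 2 (0.0904).

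Other large decreases were in genes for a scaffold, a lipid kinase and a calcium-binding protein of the endoplasmic reticulum. Magi1, a scaffold of cell junctions and synapses, read 8.32, 8.0, 8.39 and 8.47 in wild type and 6.93, 6.77, 6.95 and 7.17 in DREAM+/-. All 5 of its bright probe sets were called lower (brightest -1.34 ± 0.10 SE, limma adjusted p = 2.66e-07; the others -0.71 to -0.34). Rcn1, reticulocalbin, a calcium-binding protein of the endoplasmic reticulum lumen, read 10.35 to 10.55 in wild type and 9.26 to 9.39 in DREAM+/- (-1.11 ± 0.09 SE, limma adjusted p = 1.56e-06). Pi4kb, a phosphatidylinositol kinase of the Golgi, fell by 1.20 on the log2 scale, as did Hddc3. For Hddc3 only 1 of 2 bright probe sets moved down. The other bright probe set of Pi4kb, tested singly, changed by -0.10 (limma adjusted p = 0.751). Abhd1 fell by 1.19, Frg1 by 1.14 and Folh1, which encodes a glutamate carboxypeptidase, by 1.01. Utp18, a factor in ribosomal RNA processing, fell by 0.98 and Gnb1, a G protein beta subunit, by 0.94. Limma adjusted p values of these 7 genes ran from 2.23e-07 for Abhd1 to 0.013 for Gnb1. The call for Gnb1 was lost without DREAM+/- replicate 2 (adjusted p = 0.051) and without wild-type replicates 1 and 2 (0.0547).

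Among the increases, several were narrow within both groups. Acer3, an alkaline ceramidase, read 6.86, 6.62, 7.23 and 6.71 in wild type and 8.25, 8.16, 8.14 and 8.26 in DREAM+/-. Its 4 DREAM+/- arrays were close together and lay wholly above wild type, a 2.54-fold increase (log2 change 1.35 ± 0.13 SE, limma adjusted p = 4.44e-06). Myo7a, an unconventional myosin, read 6.61, 6.60, 6.72 and 6.74 in wild type and 7.69, 7.67, 7.83 and 7.62 in DREAM+/-, a 2.05-fold increase (1.03 ± 0.09 SE, limma adjusted p = 2.27e-06). Rbm28, a nucleolar RNA-binding protein, rose by 1.21, although 1 of its 2 bright probe sets did not move up. Fads6, named for fatty acid desaturases, rose by 1.01. Its other bright probe set, tested singly, changed by 0.13 (limma adjusted p = 0.571). Hpgd, which breaks down prostaglandins, rose by 1.0, Ggcx, the vitamin K-dependent carboxylase, by 1.07 and Ang, a secreted ribonuclease, by 1.07. Limma adjusted p values of these 5 ran from 1.99e-05 for Rbm28 to 0.00251 for Ang.

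Some further large increases rested on more variable wild-type arrays. Tmem267 read 7.39, 7.24, 6.72 and 7.72 in wild type and 9.02, 8.65, 8.62 and 8.80 in DREAM+/- (1.5 ± 0.26 SE, limma adjusted p = 0.00248). Pttg1, securin, the inhibitor of the protease that separates sister chromatids, read 10.77, 11.06, 10.18 and 11.23 in wild type and 12.25, 12.16, 12.14 and 12.22 in DREAM+/- (1.38 ± 0.31 SE, limma adjusted p = 0.0165). In both genes the spread lay in wild type. Like the other genes with large changes named above, they were taken from called genes without overlap. Their lack of overlap was therefore set by that choice. Luc7l2, a splicing factor, read 9.81, 10.09, 10.94 and 8.22 in wild type and 11.10, 11.13, 11.01 and 11.23 in DREAM+/-, but when all probe sets were tested singly only 1 of its 6 bright ones was called, not the brightest, and leaving out any DREAM+/- array or wild-type replicate 1 or 2 ended the call (highest adjusted p = 0.111). Without wild-type replicates 1 and 2 the adjusted p was 0.0919 for Pttg1 and 0.143 for Luc7l2.

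Another bright probe set for the same gene was available for 212 of the 479 called genes. All other bright probe sets moved in the called direction for 132 of these (62.3%), against 49.7% of the genes that were not called. Another probe set was itself called with the same sign for 57. The choice of the brightest probe set for each gene therefore matters for single genes.

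The Kv4 channel complex was the first group examined, since DREAM is one of its subunits. Kcnip3 itself, whose loss defines the comparison, is 1 of the 9 tested members. Of the other 8, 2 fell and 0 rose, against 3.68% of all genes called, and the median change over the 9, Kcnip3 included, was -0.20 against -0.025 for all genes. Those that fell were Dpp6 and Dpp10, single-pass membrane proteins that bind Kv4 channels and set their surface level and speed. Dpp6 read 10.05, 10.01, 9.98 and 10.12 in wild type and 9.84, 9.80, 9.79 and 9.81 in DREAM+/-. The groups were separated by a narrow gap, and the change was small (-0.23 ± 0.05 SE, limma adjusted p = 0.00999). Dpp10 read 10.11, 10.04, 10.01 and 9.93 in wild type and 9.85, 9.74, 9.69 and 9.70 in DREAM+/- (-0.28 ± 0.06 SE, limma adjusted p = 0.0209). Without wild-type replicates 1 and 2, Kcnip3 was the 1 member of 9 still called, and neither of these passed (adjusted p = 0.0757 for Dpp6 and 0.225 for Dpp10). The Dpp10 call was also lost without DREAM+/- replicate 2, 3 or 4 or wild-type replicate 1 or 2 (highest adjusted p = 0.0706). With the mean of the probe sets of each gene, 2 of the 9 members were called lower and the median change was -0.08. Dpp6 lost its call under that setting.

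The pore-forming Kv4 subunits and the other Kv channel-interacting proteins did not pass. Kcnd2, a Kv4 pore subunit, read 11.89 to 12.09 in wild type and 11.94 to 12.04 in DREAM+/- (0.01 ± 0.06 SE, limma adjusted p = 0.952). Kcnd1 changed by -0.26 (adjusted p = 0.207) and Kcnd3 by 0.13 (0.341). The paralogs of Kcnip3 had changes of -0.20 for Kcnip1 (0.207), -0.19 for Kcnip2 (0.274) and -0.12 for Kcnip4 (0.261). For Kcnip2, 1 of 3 bright probe sets was called lower, though not the brightest. Of 35 other potassium channels tested, 0 passed in the limma fit.

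Some immediate early genes, which neuronal activity induces within minutes, were lower in DREAM+/- striatum. Of 24 tested, 7 fell, 0 rose and 17 did not pass (29.2% called, against 3.68% of all genes, of which 2.08% lower). The median change was -0.41, against -0.025 for all genes, and 22 of the 24 changes were below 0. The 7 were the transcription factors Npas4, Junb, Fosb, Egr2, Egr4 and Nr4a3, and Arc, a regulator of glutamate receptor trafficking at synapses. Promoter sequences are shown for 4 of them, because cyclic AMP and calcium signals reach such genes through the cyclic AMP response element, CRE, and DREAM's DRE contains the core GTCA. The sequences are the 250 bases before the annotated start, from RefSeq on GRCm38.p6, written 5′ to 3′ in the direction of transcription, with each CGTCA or its reverse complement TGACG, the core of a CRE, in capitals.
Npas4, chr19:4989972-4990221, minus strand: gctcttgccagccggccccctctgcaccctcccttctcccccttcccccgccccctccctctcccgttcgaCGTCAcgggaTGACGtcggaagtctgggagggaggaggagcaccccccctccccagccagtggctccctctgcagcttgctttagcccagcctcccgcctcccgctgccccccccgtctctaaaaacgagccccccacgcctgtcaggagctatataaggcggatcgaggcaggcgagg
Junb, chr8:84978749-84978998, minus strand: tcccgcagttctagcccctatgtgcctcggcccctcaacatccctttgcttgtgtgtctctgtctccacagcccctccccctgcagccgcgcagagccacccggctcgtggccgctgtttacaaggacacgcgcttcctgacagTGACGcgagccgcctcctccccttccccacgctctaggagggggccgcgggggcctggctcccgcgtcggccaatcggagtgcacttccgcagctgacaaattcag
Egr4, chr6:85513590-85513839, minus strand: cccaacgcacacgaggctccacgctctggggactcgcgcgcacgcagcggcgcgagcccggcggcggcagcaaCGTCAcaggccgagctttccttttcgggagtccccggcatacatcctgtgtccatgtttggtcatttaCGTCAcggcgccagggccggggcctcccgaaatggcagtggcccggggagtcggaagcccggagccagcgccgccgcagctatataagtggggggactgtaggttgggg
Nr4a3, chr4:48045055-48045304, plus strand: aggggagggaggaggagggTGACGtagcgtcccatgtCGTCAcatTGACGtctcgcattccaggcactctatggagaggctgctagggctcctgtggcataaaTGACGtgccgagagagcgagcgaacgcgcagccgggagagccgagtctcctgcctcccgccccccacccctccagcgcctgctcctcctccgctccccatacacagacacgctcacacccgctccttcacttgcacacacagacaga

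The CRE core was present in all 6 of the fallen immediate early genes that the promoter table holds, in 7 of 11 immediate early genes that did not pass, and in 19.8% of 27025 genes with a promoter in the table, counting both strands. Npas4 carried 2 matches, Junb 1, Egr4 2 and Nr4a3 4. The shorter GTCA, or TGAC on the other strand, lies within every CRE core and was found in 82.5% of all promoters, in 6 of the 6 fallen genes and in 10 of the 11 others. Such a match is a description of letters in this window. The bases after the annotated start, where a downstream element such as the DRE can lie, were not searched.

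Npas4, an activity-dependent factor of neurons with the 2 CRE cores shown above, read 8.50, 8.60, 8.63 and 7.81 in wild type and 7.69, 7.43, 7.58 and 7.57 in DREAM+/-. Wild-type replicate 4 lay close to the DREAM+/- arrays, without overlap, and the level in DREAM+/- was 56.7% of wild type (-0.82 ± 0.15 SE, limma adjusted p = 0.00482). Arc read 9.78 to 10.41 in wild type and 9.46, 9.16, 9.23 and 9.22 in DREAM+/- (-0.74 ± 0.14 SE, limma adjusted p = 0.00559). Junb, a partner of Fos proteins in the AP-1 factor, read 8.28, 8.46, 8.84 and 7.84 in wild type and 7.67, 7.70, 7.70 and 7.52 in DREAM+/- (-0.71 ± 0.15 SE, limma adjusted p = 0.0115). Wild-type replicate 4 was again the lowest of its group in Junb. Fosb, another AP-1 member that accumulates in striatum under repeated stimulation, read 6.61, 7.01, 6.84 and 6.85 in wild type and 6.29, 6.24, 6.21 and 6.07 in DREAM+/- (-0.62 ± 0.11 SE, limma adjusted p = 0.00291).

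Egr4, a zinc-finger factor, read 8.87, 9.10, 9.13 and 8.78 in wild type and 8.57, 8.37, 8.42 and 8.48 in DREAM+/- (-0.51 ± 0.09 SE, limma adjusted p = 0.00251). The 2 groups did not overlap for Egr4, Arc, Junb or Fosb. Egr2, of the same family as Egr4, read 8.49, 8.72, 8.87 and 7.87 in wild type and 7.88, 7.52, 7.68 and 7.41 in DREAM+/- (-0.87 ± 0.20 SE, limma adjusted p = 0.0177). Here wild-type replicate 4 fell just below DREAM+/- replicate 1, so the groups overlapped, and the call was lost without DREAM+/- replicate 2 or 4 or wild-type replicate 2 (highest adjusted p = 0.0686). Nr4a3, an orphan nuclear receptor, read 9.47, 9.75, 9.78 and 9.53 in wild type and 9.23, 8.85, 9.03 and 8.99 in DREAM+/-. It was close to the threshold (-0.61 ± 0.16 SE, limma adjusted p = 0.0468), it did not pass on leaving out any 1 of the 8 arrays (highest adjusted p = 0.136), and its other bright probe set changed by -0.05.

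Further members had similar sizes without passing. Fos, the best-known member, read 9.60, 9.60, 9.95 and 8.80 in wild type and 9.0, 8.39, 8.53 and 8.60 in DREAM+/- (-0.86 ± 0.26 SE, limma adjusted p = 0.078). The groups overlapped through wild-type replicate 4. Fosl2 changed by -0.60 (adjusted p = 0.0536), Nr4a1 by -0.62 (0.162), Per1 by -0.47 (0.0747), Dusp1 by -0.43 (0.0658) and Egr1 by -0.29 (0.0949). Only Homer1 and Nr4a2 lay above 0, Homer1 at 0.07 (adjusted p = 0.406) and Nr4a2 at 0.04 (0.886). Without wild-type replicates 1 and 2, 3 immediate early genes passed, namely Fosb (adjusted p = 0.0205), Egr4 (0.0367) and Arc (0.049), and the median change of the 24 was -0.38. Without wild-type replicate 4, 9 passed.

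**Figure D2:**
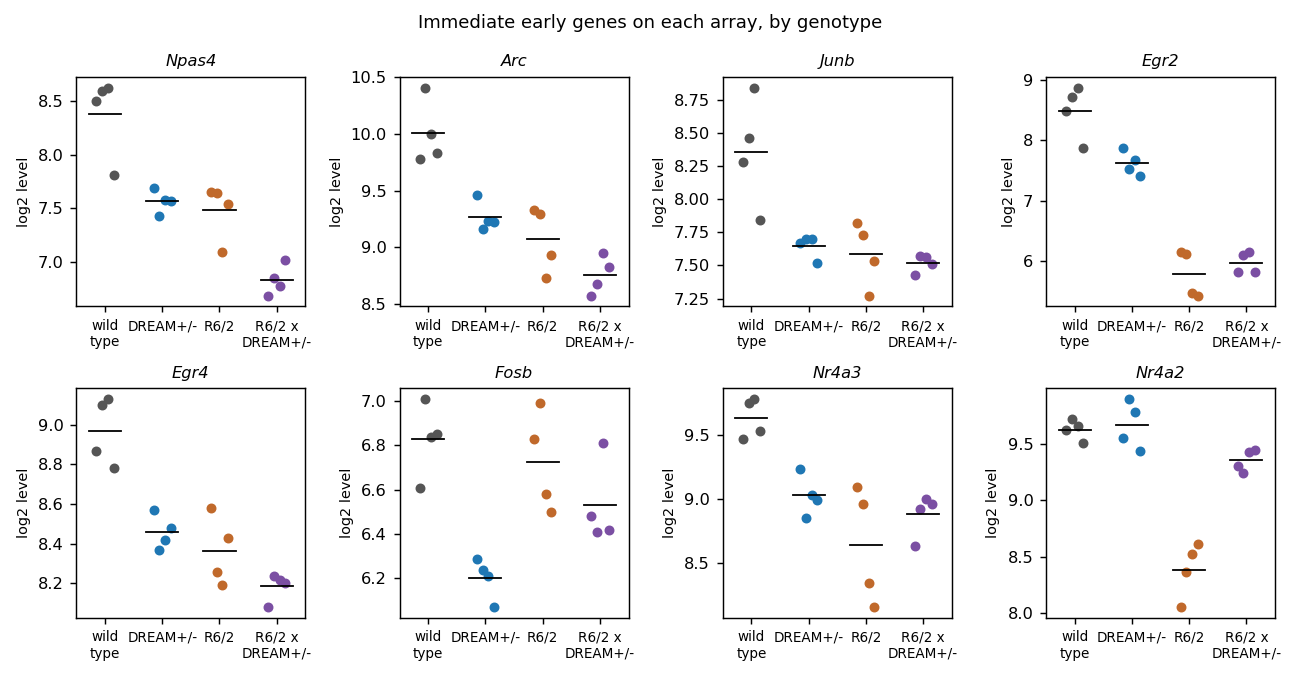
Log2 level (vertical axes, each panel on its own range) of the 7 called immediate early genes and of Nr4a2 on each of 16 arrays, by genotype; points are single arrays and bars are means of 4. In 6 of the 7 called genes the DREAM+/- arrays lie below all wild-type arrays, with an overlap in Egr2, while Nr4a2 reads 9.51 to 9.72 in wild type and 9.44 to 9.90 in DREAM+/-.

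Among 16 tested genes that have been reported as regulated by DREAM, 3 fell and 0 rose (18.8% called, against 3.68% of all genes, median -0.19), and these were Npas4, Junb and Arc, which are also immediate early genes. Prodynorphin, Pdyn, the opioid peptide gene in which the DRE was described, read 8.51, 8.53, 8.52 and 8.45 in wild type and 8.02, 8.23, 8.41 and 8.03 in DREAM+/-. The groups did not overlap, but the change did not pass (-0.33 ± 0.10 SE, limma adjusted p = 0.0808), and Pdyn lies 2.2 Mb from Kcnip3. In R6/2 x DREAM+/- against R6/2, Pdyn changed by -0.34 (limma adjusted p = 0.0344). There 1 of the 16 genes rose and 2 fell, against 14.0% of all genes called. Hrk, a pro-death BCL2 family member, changed by -0.03 (adjusted p = 0.928), Slc8a3, a sodium-calcium exchanger, by 0.00 (0.976) and Bdnf, brain-derived neurotrophic factor, by -0.09 (0.491). Of 11 tested binding partners of DREAM, 0 passed, and Psen2, presenilin 2, changed by 0.03 (0.83).

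In the ATF6 and unfolded protein response list, which covers chaperones and sensors of the endoplasmic reticulum, 2 of 33 genes fell and 0 rose (6.06% called, median -0.06), which is near the 3.68% of all genes and is not a result about the list. Dnajc10, a disulfide reductase that helps unfold proteins for degradation, read 10.12, 9.92, 10.04 and 9.92 in wild type and 9.77, 9.76, 9.75 and 9.75 in DREAM+/- (-0.24 ± 0.05 SE, limma adjusted p = 0.0142). The change was small but the groups did not overlap. Hyou1, an ATP-dependent chaperone, changed by -0.27 (adjusted p = 0.0476), with DREAM+/- replicate 4 at 9.62 among the wild-type values. Atf6 itself read 9.07 to 9.33 in wild type and 9.28 to 9.53 in DREAM+/- and did not pass (0.18, adjusted p = 0.343). Among 22 cytosolic chaperones 2 fell, Hspa1a, an inducible heat shock protein (-0.45 ± 0.10 SE, limma adjusted p = 0.0154), and Dnajb5 (-0.25, 0.0377). The call was lost for Hspa1a without DREAM+/- replicate 1 or wild-type replicate 4 (highest adjusted p = 0.053), for Dnajb5 without any of 6 arrays (0.123; DREAM+/- replicate 1 and wild-type replicate 4 were the exceptions) and for Hyou1 without any array but DREAM+/- replicate 4 (0.15).

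Identity genes of medium spiny neurons gave no call. Of 29 tested markers 0 passed in the limma fit, with a median change of -0.09, 21 below 0 and 8 above. Penk, enkephalin, changed by -0.07 (adjusted p = 0.668), Drd1 by -0.03 (0.912) and Drd2, the dopamine receptor of indirect pathway neurons, by -0.26 (0.437). Ppp1r1b, which encodes the dopamine-regulated phosphoprotein DARPP-32, read 12.79, 12.99, 12.84 and 13.12 in wild type and 12.60, 12.68, 12.71 and 12.54 in DREAM+/-. Its groups did not overlap, and it was just outside the threshold (-0.30 ± 0.09 SE, limma adjusted p = 0.0582). In R6/2 x DREAM+/- against R6/2, Ppp1r1b changed by -0.30 (limma adjusted p = 0.0288). There 2 of the 29 markers rose and 5 fell, against 14.0% of all genes called. Htt, the mouse huntingtin gene, changed by -0.08 (0.418).

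Synaptic genes gave few calls. Of 34 glutamate receptor and postsynaptic genes 2 rose and 1 fell (8.82% called, against 3.68% of all genes, median 0.00). Grm3, a metabotropic glutamate receptor, read 10.38, 10.32, 10.98 and 10.15 in wild type and 10.88, 10.96, 10.95 and 10.96 in DREAM+/-, so that wild-type replicate 3 lay above the DREAM+/- arrays (0.48 ± 0.12 SE, limma adjusted p = 0.0407). Dlgap2, a scaffold of the postsynaptic density, rose by 0.38 (adjusted p = 0.031), and Grm8, a presynaptic metabotropic receptor, fell by 0.30 (0.0397). Gabrb2, a subunit of the GABA-A receptor, rose from 11.01 to 11.47 in wild type to 11.62 to 11.76 in DREAM+/- (0.39 ± 0.08 SE, limma adjusted p = 0.00834), the only call among 15 GABA genes, and it also passed without wild-type replicates 1 and 2 (0.0182). The other bright probe sets of Gabrb2, tested singly with limma, did not pass. They changed by -0.06 (adjusted p = 0.657), 0.09 (0.615), 0.07 (0.694) and 0.57 (0.519). Of 47 calcium-handling genes 1 fell, Cacnb1, a calcium channel beta subunit (-0.30, adjusted p = 0.0493). Grm3, Dlgap2, Grm8 and Cacnb1 each lost the call without wild-type replicates 1 and 2 (adjusted p = 0.312, 0.274, 0.159 and 0.284). Single arrays also ended these calls: for Grm3 and Cacnb1 any array but wild-type replicate 3, for Dlgap2 DREAM+/- replicate 2 or 3 or wild-type replicate 1, 2 or 4, and for Grm8 DREAM+/- replicate 1 or 4 or any wild-type array.

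Some microglia markers were higher in DREAM+/- striatum. Of 14 tested, 4 rose and 0 fell (28.6% called, against 3.68% of all genes, of which 1.60% higher), the median change was 0.23 and 11 lay above 0. Fcrls, an Fc receptor-like gene typical of brain-resident microglia, read 7.82, 7.91, 8.18 and 8.02 in wild type and 8.90, 8.78, 8.73 and 8.83 in DREAM+/-. All DREAM+/- arrays lay above all wild-type arrays (0.83 ± 0.08 SE, limma adjusted p = 3.81e-06). C1qb, a chain of the complement starter C1q, read 10.01, 10.13, 10.03 and 9.92 in wild type and 10.46, 10.50, 10.36 and 10.40 in DREAM+/- (0.41 ± 0.07 SE, limma adjusted p = 0.00138). C1qc, the third chain of C1q, rose by 0.26 (adjusted p = 0.0407) and Trem2, a microglial lipid receptor, by 0.24 (0.0479), both near the threshold. Defining markers of these cells did not all follow: Tmem119 changed by -0.05 (0.76), P2ry12 by 0.02 (0.963), Aif1 by -0.29 (0.0719), C1qa by 0.23 (0.0606), Cx3cr1 by 0.72 (0.123) and Csf1r by 0.24 (0.0508). With the mean of the probe sets of each gene, 3 of the 14 rose and the median was 0.09. Other bright probe sets of these genes, tested singly, did not pass. They read 0.30 and 0.26 for C1qb, -0.06 for Trem2, -0.03 and 0.01 for Csf1r and 0.84 for Cx3cr1. Without wild-type replicates 1 and 2 only Fcrls (0.000325) and C1qb (0.0101) passed. The same count of 2 was found on leaving out DREAM+/- replicate 1, 2 or 3 or wild-type replicate 4. The Trem2 call was lost on leaving out any 1 array (highest adjusted p = 0.134) and the C1qc call on leaving out any but DREAM+/- replicate 4 and wild-type replicate 2 (0.129).

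Genes of antigen presentation and interferon response gave 3 increases and 0 decreases among 17 (17.6% called, against 3.68% of all genes, median 0.05). H2-K1, a class I histocompatibility chain, read 8.22, 7.94, 8.05 and 8.50 in wild type and 9.33, 9.22, 9.19 and 8.94 in DREAM+/- (0.99 ± 0.19 SE, limma adjusted p = 0.00664). Its probe set carries the suffix x_at, by which the maker marks probes that can match related transcripts, so the H2 gene measured is uncertain. H2-D1 changed by 0.76 without passing (adjusted p = 0.0793), and its 6 bright probe sets ran from -1.04 to 0.76, 4 of them up. B2m, the shared light chain of class I molecules, rose by 0.36 (0.016) and lies 5.3 Mb from Kcnip3. Rsad2, an interferon-induced antiviral enzyme, rose by 0.33 (0.0361). Without wild-type replicates 1 and 2 the adjusted p values of H2-K1, B2m and Rsad2 were 0.0999, 0.124 and 0.115. B2m also lost the call without DREAM+/- replicate 1 or 2 (highest 0.0589), and Rsad2 without DREAM+/- replicate 1, 2 or 4 or wild-type replicate 1, 3 or 4 (0.108).

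In each list of markers of other cells that a dissected striatum can hold, at most 2 genes were called. Shares in these lists stand against 3.68% of all genes. No call was made among 17 astrocyte markers (median 0.00; Gfap 0.33, limma adjusted p = 0.0771, though its other bright probe sets, tested singly, read -0.12 at 0.685 and 1.62 at 0.0151), 14 oligodendrocyte markers (median 0.03), 16 interneuron markers (median -0.03), 13 cortical projection neuron markers (median 0.03) or 8 meningeal markers (median -0.07). The mean level of the cortical markers was 8.23 to 8.43 in wild type and 8.29 to 8.49 in DREAM+/-. Olig1 rose by 0.23 (adjusted p = 0.0214), the 1 call among 8 markers of oligodendrocyte precursors (12.5%). Abcc9, a pericyte channel subunit, rose by 0.23 (0.0491), the 1 call among 16 vascular markers (6.25%). Of 14 neighbouring forebrain markers Gng4 rose by 0.32 (0.0179) and Cdhr1 fell by 0.38 (0.0435), which is 14.3% called. Among 14 choroid plexus and ependyma markers 1 passed (7.14%), Kcne2, a potassium channel subunit. It read 6.65, 5.75, 6.09 and 5.04 in wild type and 7.86, 6.40, 9.15 and 7.55 in DREAM+/- (1.86 ± 0.45 SE, limma adjusted p = 0.0289). The mean of the choroid list also varied between arrays, from 7.81 to 8.12 in wild type and at 8.26, 7.45, 8.80 and 8.01 in DREAM+/-, in the same order as Kcne2 among the DREAM+/- arrays. The part of choroid tissue in the Kcne2 value was not tested. The Kcne2 call was lost without DREAM+/- replicate 1, 3 or 4 or wild-type replicate 2 or 4 (highest adjusted p = 0.0915), that of Olig1 without DREAM+/- replicate 2 or 4 or wild-type replicate 2 or 4 (0.087), and that of Gng4 without DREAM+/- replicate 1 or 4 (0.0652). Abcc9 passed on leaving out wild-type replicate 3 but no other array, and Cdhr1 on leaving out wild-type replicate 4 but no other. Ttr, the defining choroid transcript, changed by -0.03 (0.962).

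Housekeeping groups gave 0 to 3 calls each. Of 29 cytosolic ribosomal protein genes 3 fell and 0 rose (10.3% called, against 3.68% of all genes, median -0.06): Rpl14 by 0.66 (limma adjusted p = 0.00899), Rps2 by 0.27 (0.0116) and Rps18 by 0.23 (0.0462). Rps2 and Rps18 were read on probe sets marked x_at, and the Rps18 call was lost without any DREAM+/- array or wild-type replicate 2 or 4 (highest adjusted p = 0.137). Of 21 clock genes 1 fell, Per3, which read 7.95 to 8.48 in wild type and 7.61 to 7.94 in DREAM+/- (-0.48 ± 0.10 SE, limma adjusted p = 0.00999) and passed without wild-type replicates 1 and 2 (0.00446). Its direction depends on the probe set: when probe sets were tested singly, this one gave -0.48 (adjusted p = 0.0173) and another rose by 0.64 (0.0197), and the call was lost with the mean of the 5. Of 19 cholesterol synthesis genes 1 rose, Hsd17b7 (0.34, 0.00985). In the limma fit 0 genes passed among 39 of oxidative phosphorylation, 31 of the proteasome, 27 of presynaptic release, 35 of histone and DNA modification and 17 of apoptosis. Over all 36 lists, 36 of 644 distinct genes were called (5.59%), 15 higher and 21 lower, and 19 lists had no call.

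**Figure D3:**
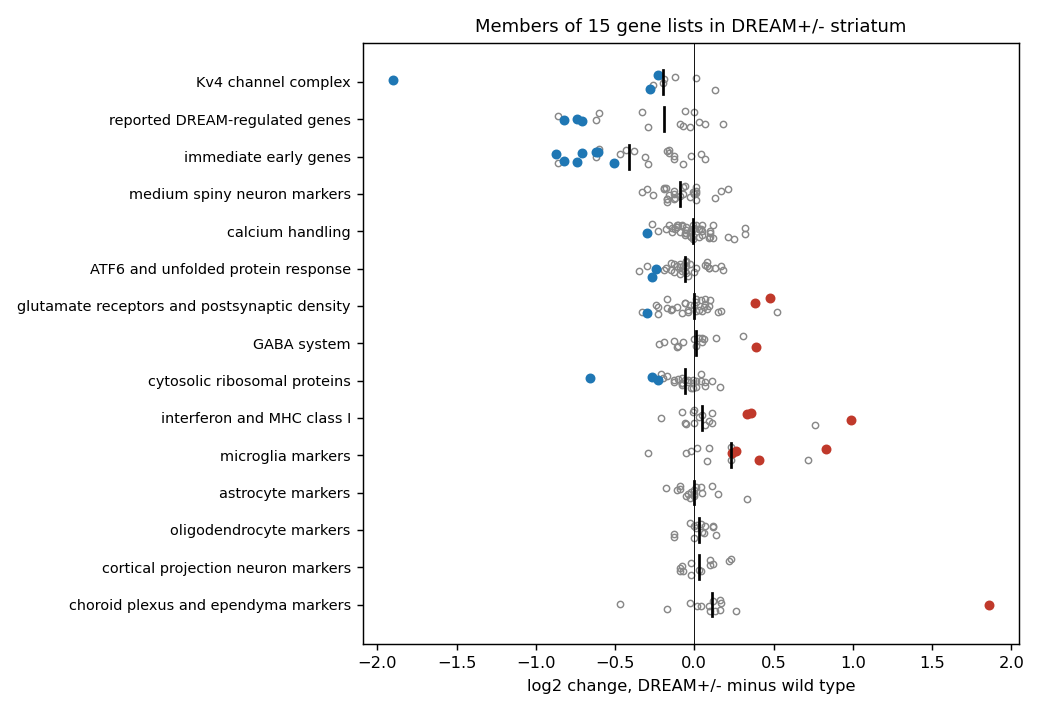
Log2 change of each tested member (horizontal axis, DREAM+/- minus wild type) in 15 of the gene lists; filled blue points fell and filled red points rose at a limma adjusted p under 0.05, open points did not pass, and black bars are list medians. Immediate early genes have a median of -0.41 and microglia markers of 0.23, while the medians of medium spiny neuron (-0.09), astrocyte (0.00) and oligodendrocyte (0.03) markers lie near 0.

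Against wild type, the share of genes called was higher within 20 Mb of Kcnip3 than on other chromosomes. Kcnip3 lies on chromosome 2, and the knockout allele enters the DREAM+/- mice together with the DNA linked to it, so that effects of the allele and of linked sequence cannot be told apart by distance. Leaving out Kcnip3 itself, 5 of 94 tested genes were called within 5 Mb (5.32%), 9 of 87 from 5 to 10 Mb (10.3%) and 8 of 62 from 10 to 20 Mb (12.9%). Farther out the share was 3.10% from 20 to 40 Mb and 1.58% over the rest of the chromosome, and on other chromosomes it was 3.66%. Within 20 Mb, 22 of 243 genes were called (9.05%), 9 higher and 13 lower. That count was 12 without DREAM+/- replicate 2, where 280 of all 13011 genes were called. It was 12 without wild-type replicate 2, with 284 called over all genes. Without wild-type replicates 1 and 2 it was 6, with 155 called over all genes. On the R6/2 background the shares lay closer together, at 17.3% within 20 Mb, 16.6% from 20 to 40 Mb and 13.9% on other chromosomes. No test of this difference was made.

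**Figure D4:**
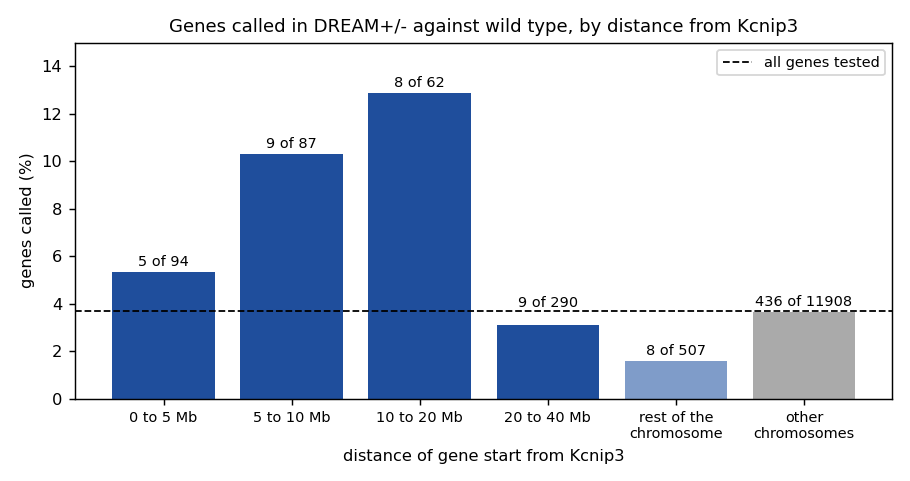
Percent of tested genes called in DREAM+/- against wild type (vertical axis, from 0) by distance of the gene start from Kcnip3, without Kcnip3; numbers give called of tested genes and the dashed line is the 3.68% of all genes. The share is 12.9% from 10 to 20 Mb and 1.58% on the rest of the chromosome.

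Several genes of this segment had groups that did not overlap. Besides Tmem87a, the phospholipase gene Pla2g4e, 7.3 Mb away, read 6.95, 7.42, 6.89 and 7.46 in wild type and 6.23, 6.20, 6.33 and 6.33 in DREAM+/- (-0.91 ± 0.11 SE, limma adjusted p = 8.73e-05). Scg5, secretogranin V, a chaperone of prohormone convertase 2 in neurons, read 12.52, 12.52, 12.29 and 12.50 in wild type and 11.85, 11.81, 11.71 and 11.71 in DREAM+/- (-0.69 ± 0.07 SE, limma adjusted p = 1.5e-05) and lies 13.7 Mb away. It was bright on every array, and its groups lay well apart. Lin7c, a scaffold of synapses and junctions, 17.6 Mb away, read 9.14, 9.48, 9.65 and 9.55 in wild type and 10.06, 10.21, 10.19 and 10.12 in DREAM+/- (0.69 ± 0.10 SE, limma adjusted p = 0.000744). All 4 of its bright probe sets moved up. Mga, a partner of MAX, rose by 0.69, Stk35, a kinase, by 0.55, Polr3f, an RNA polymerase III subunit, by 0.50, Jag1, a Notch ligand, by 0.45, Gatm, the first enzyme of creatine synthesis, by 0.34 and Tmem230 by 0.21. Zscan29, a zinc-finger protein, fell by 0.70, Macrod2 by 0.35, Dtd1 by 0.26 and Galk2 by 0.24. Limma adjusted p values of these 10 genes ran from 0.00106 for Macrod2 to 0.0478 for Galk2. The DREAM+/- arrays of Zscan29 (5.37 to 5.65) lay below 5.944, the level under which genes were left out as dim, so its size is not exact. Mga and Polr3f lost the call with the mean of their probe sets; the other bright probe set of Mga changed by -0.23, and 2 of the 4 of Polr3f moved down. Single arrays decided some of them: the call was lost for Gatm without DREAM+/- replicate 2 or wild-type replicate 2 (highest adjusted p = 0.0624), for Stk35 without DREAM+/- replicate 2, 3 or 4 or wild-type replicate 1 or 2 (0.0929), for Tmem230 without DREAM+/- replicate 1, 3 or 4 or wild-type replicate 2 or 4 (0.0813), and for Galk2 without any array but DREAM+/- replicate 4 (0.138).

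Other parts of the genome also held runs of called genes. Of 216 windows of 10 Mb with at least 20 tested genes, 54 held no call and 19 had at least 10% called. The highest share was on chromosome 8, with 6 of 25 genes (24.0%), followed by a window on chromosome 7 with 10 of 45 (22.2%) that contains Acer3 and Myo7a. All 10 of the latter were also called, in the same direction, in R6/2 x DREAM+/- against R6/2. By chromosome the share ran from 1.23% on X to 5.96% on 6.

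The same allele was then followed on the R6/2 background. Its group means come from other arrays than those of the comparison with wild type, but both comparisons use 1 estimate of spread from all 16 arrays, so their errors are not independent. Leaving out R6/2 x DREAM+/- replicate 3 alone moved the calls against wild type from 479 to 703. R6/2 x DREAM+/- and R6/2 arrays differed for 1819 genes (14.0%), 693 higher and 1126 lower, or 833 higher and 659 lower after each array was shifted to a common median. Of the 479 genes called against wild type, 328 were called there with the same sign, 68.5% of the 479 and 18.0% of the 1819, and 2.52% of all genes tested. Without regard to p, 464 of the 479 had the same sign. All 29 genes that had changed at least 2-fold were among the 328. Rbm45 read 9.19, 9.91, 9.73 and 9.09 in R6/2 and 6.69, 6.69, 6.55 and 7.17 in R6/2 x DREAM+/-, a change of -2.71 against -2.35 without the transgene. Tmem87a changed by -1.93 against -2.25, Acer3 by 1.61 against 1.35, Fcrls by 0.72 against 0.83 and Kcnip3 by -1.55 against -1.90. The 4 called microglia markers all passed on both backgrounds, and Dpp6 changed by -0.36 (limma adjusted p = 0.000158) and Dpp10 by -0.01 (0.914). Over all genes the 2 sets of changes had a Pearson correlation of 0.705, a description across genes, which are not independent replicates.

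**Figure D5:**
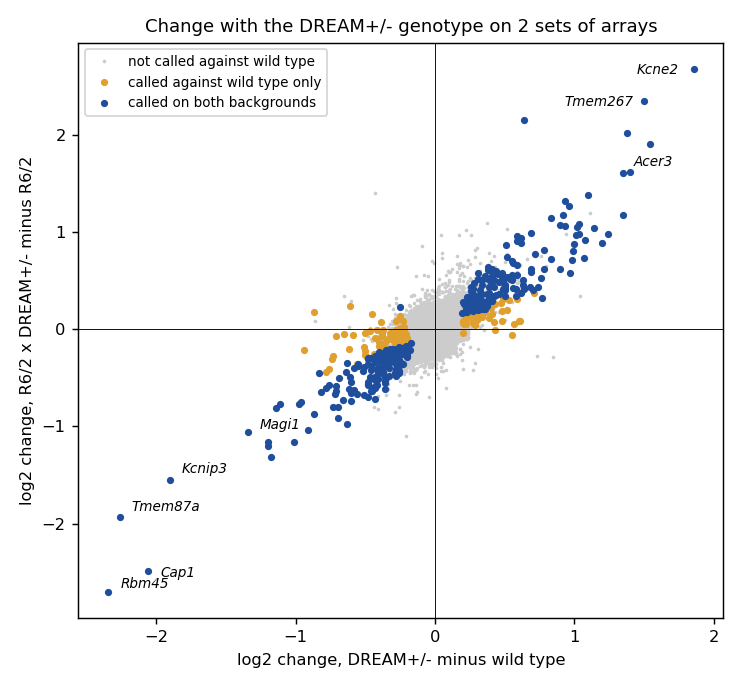
Log2 change with the DREAM+/- genotype against wild type (horizontal axis) and on the R6/2 background (vertical axis); each point is 1 of 13011 genes and the means on the 2 axes share no array, though the tests share 1 estimate of spread. The called genes with the largest changes, such as Rbm45 at -2.35 and -2.71, lie in the same quadrant on both axes.

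A direct test of the difference between the 2 backgrounds called 0 genes with limma at an adjusted p under 0.05 (lowest 0.0578), while 898 had an unadjusted p under 0.05, 80 of them among the 479. The 150 genes called only against wild type are therefore not shown to be particular to it. Immediate early genes had values of this kind. On the R6/2 background their median change was 0.02 against -0.41, with 4 of 24 called higher and 1 lower. In that comparison 14.0% of all genes were called, 5.33% higher and 8.65% lower. Of the 7 that fell against wild type, Npas4 also fell there (-0.65, limma adjusted p = 0.0115). Egr2 read 6.16, 6.12, 5.48 and 5.43 in R6/2 and 5.83, 6.10, 6.16 and 5.83 in R6/2 x DREAM+/-. These values lie around 5.944, the level used to leave out dim genes, so a further fall could hardly be measured there and its change of 0.18 is not set against the -0.87 without the transgene. Nr4a2 read 8.05, 8.36, 8.52 and 8.61 in R6/2 and 9.30, 9.24, 9.43 and 9.45 in R6/2 x DREAM+/-, a rise of 0.97 against a change of 0.04 without the transgene (difference 0.93, unadjusted p = 1.35e-05, limma adjusted p = 0.0587). Hspa1a differed by 0.61 between backgrounds (0.16 against -0.45, unadjusted p = 0.000428, limma adjusted p = 0.42). Etv3, a transcriptional repressor, was the 1 gene called on both backgrounds with opposite signs (-0.25 and 0.23), and its difference did not pass either (limma adjusted p = 0.139).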

How the data were processed

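RNA of whole striatum was measured on 16 arrays, 4 for each of 4 genotypes. The authors deposited their values on a log2 scale, per probe set. Per the submitters' processing notes, the tools were RMA and affy (no role or version given); the sources used here name no genome build. The deposited values ran from 3.34 to 14.71 (log2), with array medians of 6.54 to 6.58, so that a shift common to most genes could not be seen. Precision is limited by the number of arrays.

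Of 45101 probe sets, the 34945 with 1 gene symbol in the platform annotation were used (932 had several, 9160 none and 64 were controls). The brightest probe set stood for a gene, and a gene entered the tests if its mean reached 5.944, the 40th percentile over probe sets. The tests used lmFit and eBayes of limma 3.58.1 (R 4.3.3) on genotype means of all 16 arrays, with 1 shared spread; called means a p under 0.05 after Benjamini-Hochberg adjustment across the 13011 genes. Kcnip3 was tested per probe set over all single-symbol probe sets. SE is limma's moderated standard error. This fit was first tested on simulated data. Distances and chromosomes come from a RefSeq gene table (GRCm38.p6) and were used to place genes relative to Kcnip3, in windows of 10 Mb and by chromosome.

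The comparison and the 36 gene lists were chosen with earlier results of these data known. The rule for naming genes took Kcnip3, the 15 called genes with the highest and the 15 with the lowest change among those without overlap, the 15 largest called on both backgrounds, up to 4 members per list by unadjusted p, called genes within 20 Mb of Kcnip3 and a fixed set of 20 genes. Outside that rule, Egr1, Egr2, Nr4a2, Nr4a3, Dusp1, Homer1, Kcnd3, C1qa, Csf1r, Cx3cr1, P2ry12, Tmem119, Aif1, Ttr and Etv3 were named after their values were seen. Alternatives changed the normalization, filter, probe-set rule, arrays in the fit, variance model, array weights, covariates (Y-linked and cortical marker level), replicate block and left-out arrays.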

Additional observations from a re-analysis of the deposited data

Results flagged for a closer look

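Within a group of 4 arrays, 1 array lay far from the other three in 12 of the 206 groups looked at (103 genes in wild type and in DREAM+/-); chance alone flags about 1 in 20 groups. In wild type, replicate 4 was low in Npas4 (7.81, the others 8.50 to 8.63) and Pi4kb (6.76, the others 7.37 to 7.45). Wild-type replicate 3 was low in Kcnd1 (7.38 against 7.58 to 7.62) and Scg5 (12.29 against 12.50 to 12.52) and high in Dlgap2 (7.80 against 7.44 to 7.49).

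In DREAM+/-, replicate 4 was low in Junb (7.52, the others 7.67 to 7.70), H2-D1 (9.21 against 9.37 to 9.39) and Drd2 (10.34 against 10.59 to 10.63), and high in Etv3 (8.06 against 7.88 to 7.91). Replicate 1 was low in Rbm28 (9.81, the others at 9.99 or above) and Grm3 (10.88 against 10.95 to 10.96), and replicate 3 was high in Htt (8.28 against 8.20 to 8.21).

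The effect of the DREAM+/- genotype on Etv3 had opposite signs on the 2 backgrounds, -0.25 against wild type and 0.23 on the R6/2 background, a difference of 0.47 on the log2 scale (limma adjusted p = 0.139, unadjusted 5.34e-05). Only 2 of its 4 bright probe sets moved down against wild type: tested singly, the one reported gave -0.25 (limma adjusted p = 0.0565) and another rose by 0.22 (0.0374). Its call against wild type was lost on leaving out any array but DREAM+/- replicate 4 (highest adjusted p = 0.107).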

How the results depend on the processing

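Both Kcnip3 probe sets kept their direction and their call under all alternatives run, at -1.98 to -1.82 and -3.05 to -2.85 on leaving out 1 array. Against 479 called genes, array weights gave 899 (329 higher and 570 lower), leaving out wild-type replicates 1 and 2 together gave 155, and leaving out any 1 array gave 280 to 703. The other settings gave 339 (Y-linked level as a covariate) to 587 (only the 2 genotypes compared), and quantile normalization moved the share of higher calls from 43.4% to 52.7%. Calls shared with the R6/2 background numbered 328, with 583 under array weights, 122 without wild-type replicates 1 and 2 and 207 to 466 on leaving out 1 array. Within 20 Mb of Kcnip3, 22 calls became 37 with array weights, 6 without wild-type replicates 1 and 2 and 12 to 28 on leaving out 1 array. On the R6/2 background 1819 calls became 1067 with only the 2 genotypes compared and 1067 to 2708 on leaving out 1 array. The difference between backgrounds gave 1 call after quantile normalization, 3 with the 60th percentile filter and 0 to 2 on leaving out 1 array. The causes of these shifts were not tested.

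Of the 208 genes named by rule or later, 85 were called, and over 28 settings they gave 2352 values, since some were not tested under every setting. The call was kept in 1991 and lost in 360, and in the remaining 1 Etv3 changed sign, from -0.25 to just above 0 (0.00), with the mean of its probe sets; 32 genes kept the call under every setting that tested them.

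Replicate numbers did not pair the samples: deviations of same-numbered wild-type and DREAM+/- arrays correlated at 0.209, 0.146, 0.036 and -0.104, and not every array correlated best with its own number. With the replicate block 434 genes were called, 298 of them shared with the R6/2 background and 20 within 20 Mb of Kcnip3.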
